A study of Mus musculus with 21 samples.

Results

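Zfp genes encode zinc finger proteins, most of which bind DNA through repeated C2H2 fingers, each a short loop held around a zinc ion. Many of them also carry a KRAB domain, which recruits the corepressor Trim28 and, through it, enzymes that deposit repressive chromatin on retroelements and imprinted regions. In early mouse embryos such proteins are known for keeping imprints and silencing retroviruses, while others serve pluripotency, splicing, ribosome assembly or spindle function.

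The genes described here are the protein-coding genes whose symbol is Zfp followed by a digit, without Zfp352, Zfp57 and the Zfp36 family. They number 388 of 55450 annotated genes (GENCODE vM21 on GRCm38, the assembly of mm10). The rule that selects them uses no measured value, but it was set with earlier results of these data known. A pattern search of the annotated proteins found a KRAB domain in 231 and none in 157, and a median of 10 C2H2 fingers per gene, 12 with KRAB and 7 without. The search found no finger in 12 members, and the highest number was 36. Of the 228 KRAB members with a finger, 226 have all of them in the last coding exon, against 75 of 148 other members. They lie close together, with 206 members in 19 clusters of at least 5 genes whose starts are within 1 Mb of the next.

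The data were PacBio long-read transcripts of 7 stages, 1 pool of 2 batches each, and 14 Illumina libraries with 2 replicates per stage, all from cDNA amplified by Smart-seq2. Sperm came from the epididymis of males labelled DBA/2J (DBA/2N in the protocol), and oocytes from superovulated C57/BL6J females aged 3 to 5 weeks, each given 7.5 IU of the hormones. The 1-cell, 2-cell, 4-cell, 8-cell and blastocyst samples were embryos of C57/BL6J mothers and DBA/2J fathers, cultured after collection. Their mothers were also superovulated, at the same ages and with the same hormone dose. Oocytes were taken at 20 h after hCG, and embryos at 24 to 26, 46 to 48, 54 to 58, 68 to 70 and 94 to 96 h in stage order. Every library pooled many gametes or embryos, and no treatment other than superovulation was applied. A lower share of one cell lineage cannot be told apart from less RNA per cell.

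Levels are in TPM, a transcript's share of all transcripts in its library after scaling for length, which keeps no read depth. A gene's level is the sum over its merged long-read transcripts. Changes between stages are on the scale of log2(TPM + 1), given with the SE, and a change was called at an adjusted p under 0.05 (limma, Benjamini-Hochberg over all genes tested). Labelled stages carried their markers. All 5 sperm markers and all 5 oocyte markers were at 1 TPM or more in both libraries of their own stage, and so were all 5 blastocyst markers in blastocysts. This threshold does not separate stages, since all 5 oocyte markers also reached it in every library from 1-cell to 4-cell. The summed TPM of each list was highest in the libraries of its own stage. No merged transcript matched any of 7 cumulus and granulosa cell markers, so these have no level in any library and cannot show whether such cells were present.

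Of the 388 members, 145 had at least 1 merged transcript and 243 had none, so nothing below describes those 243. A gene without a merged transcript has no level here, whether or not the embryos express it. Among all 55450 annotated genes, protein-coding or not, 10917 had a transcript, 9758 of them protein-coding. KRAB members were found for 75 of 231 genes and other members for 70 of 157. In the clusters 67 of 206 members were found, and outside them 78 of 182. Of the 145, 143 reached 1 TPM in at least 2 of the 12 libraries from oocyte to blastocyst and were tested beside the other genes, 10000 in all.

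The promoters of 4 members are shown because their genes made the largest called rises and falls from oocyte to 4-cell among those with a long-read start within 100 bases of a RefSeq start. Each runs from 250 bases before to 50 bases after the start, as given by RefSeq on GRCm38.p6, written 5′ to 3′ with CG dinucleotides in capitals. Zfp622 (chr15:25984116-25984415, plus strand) and Zfp239 (chr6:117861774-117862073, plus strand) rose. Zfp664 (chr5:124862455-124862754, plus strand) and Zfp957 (chr14:79247318-79247617, minus strand) fell.
Zfp622: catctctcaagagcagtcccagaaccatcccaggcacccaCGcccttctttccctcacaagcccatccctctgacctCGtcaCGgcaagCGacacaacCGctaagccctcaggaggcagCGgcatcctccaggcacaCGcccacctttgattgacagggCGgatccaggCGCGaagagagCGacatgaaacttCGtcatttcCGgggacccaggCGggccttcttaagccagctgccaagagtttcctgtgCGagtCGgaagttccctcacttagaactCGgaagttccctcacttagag
Zfp239: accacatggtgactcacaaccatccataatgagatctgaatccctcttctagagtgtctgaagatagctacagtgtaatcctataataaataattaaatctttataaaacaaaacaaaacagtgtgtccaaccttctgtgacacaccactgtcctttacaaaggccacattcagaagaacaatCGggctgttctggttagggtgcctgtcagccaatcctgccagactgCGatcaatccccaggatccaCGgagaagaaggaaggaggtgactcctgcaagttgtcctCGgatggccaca
Zfp664: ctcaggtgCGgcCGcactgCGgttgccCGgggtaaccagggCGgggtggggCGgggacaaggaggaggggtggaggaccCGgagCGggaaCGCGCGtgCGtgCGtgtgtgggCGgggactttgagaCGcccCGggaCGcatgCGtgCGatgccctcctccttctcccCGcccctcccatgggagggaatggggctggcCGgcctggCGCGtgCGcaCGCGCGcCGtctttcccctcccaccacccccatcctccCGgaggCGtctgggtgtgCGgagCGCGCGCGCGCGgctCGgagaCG
Zfp957: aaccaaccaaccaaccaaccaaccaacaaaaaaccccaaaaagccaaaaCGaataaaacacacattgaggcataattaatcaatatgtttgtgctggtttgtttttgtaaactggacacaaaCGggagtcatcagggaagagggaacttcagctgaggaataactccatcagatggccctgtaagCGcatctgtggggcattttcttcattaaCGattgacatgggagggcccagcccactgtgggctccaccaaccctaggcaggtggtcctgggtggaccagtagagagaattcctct
The long-read start was 0 bases from the RefSeq start in Zfp622, 68 in Zfp239, 17 in Zfp664 and 24 in Zfp957. CG dinucleotides number 17 in Zfp622, 4 in Zfp239, 39 in Zfp664 and 4 in Zfp957, so both the rising and the falling pair hold a CG-rich and a CG-poor window.

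RefSeq promoters were matched by symbol for 320 members, 118 of them with a merged transcript, and 81 of these 118 had a long-read start within 300 bases of a RefSeq start. The median promoter held 14 CG dinucleotides among members, against 7 among all 32851 promoters of the table. Members are protein-coding by definition, but the promoters of the table were not limited to protein-coding genes. It held 10 in KRAB members and 20 in the others. The letters CCAAT, searched on both strands, were in 54.4% of the promoters of KRAB members, 35.8% of those of other members and 37.4% of all promoters. GGGCGG was in 36.0% and 56.0% of them, and in 35.7% of all. TATAAA was in 6.46% of members' promoters and 13.6% of all. These matches describe the windows and not binding.

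Summed over the members, transcript levels were highest in the 2-cell libraries. Replicates 1 and 2 summed to 8533 and 5677 TPM at 2-cell, against 3102 and 4046 in oocytes, 3857 and 4834 in 1-cell embryos and 5296 and 4233 at 4-cell. Later the sums were 3716 and 3209 at 8-cell and 2505 and 2377 in blastocysts, and in sperm they were 2280 and 2291. Both 2-cell libraries lay above all others, and without Zfp706 and Zfp622 they summed to 4099 and 5230. Members had their highest stage mean at 2-cell in 42 of 145 genes and at 4-cell in 40, or 29.0% and 27.6%, against 15.5% and 17.5% of all genes. The other members peaked in sperm (15, or 10.3%), in oocytes (11, or 7.59%), at 1-cell (20, or 13.8%), at 8-cell (5, or 3.45%) and in blastocysts (12, or 8.28%). The shares of all genes at these stages were 24.6%, 11.2%, 10.1%, 8.17% and 12.8%. Each stage mean rests on 2 libraries, so a single high library can set the peak. Replicates of members differed most at 2-cell, with a median SD of log2(TPM + 1) of 1.41, against 0.977 over all genes. Peaks were counted from the deposited TPM only.

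**Figure D1:**
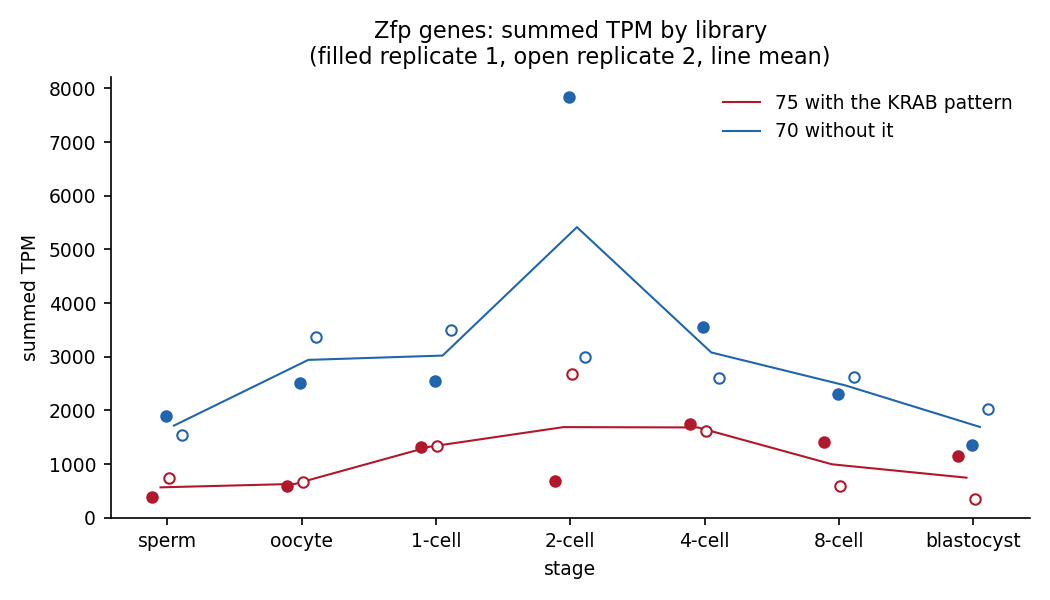
Summed TPM (vertical axis) of the 75 transcribed members with the KRAB pattern and the 70 without it, by stage, with filled points for replicate 1, open points for replicate 2 and lines for stage means. At 2-cell the replicates of the other members lie at 7840 and 2990, and those of the KRAB members at 693 and 2688.

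Replicates of 3 stages differed along with base composition. KRAB members are poorer in G and C, with a median of 41.1% over their annotated transcripts, against 50.6% in other members and 49.4% in protein-coding genes. The 75 transcribed KRAB members summed to 693 and 2688 TPM in the 2-cell replicates, 1408 and 585 at 8-cell and 1143 and 353 in blastocysts. At 4-cell the same sums were 1742 and 1625, and at 1-cell 1314 and 1332. Over the members, the difference of replicate 1 minus replicate 2 correlated with GC content at Spearman rho 0.49 at 2-cell, −0.73 at 8-cell and −0.59 in blastocysts, but −0.10 at 4-cell and 0.24 at 1-cell. Over all 9658 genes with a GC value the same correlation was 0.24, −0.47, −0.36, −0.15 and 0.15 in that order, so it is not particular to the members. The member values describe 144 genes that share libraries, and no value carries a p. At 2-cell the replicate SD of log2(TPM + 1) had a median of 1.41 over members and 0.977 over all genes, and at 4-cell 0.205 and 0.176. What part base composition has in any stage difference was not tested, and the comparisons of gene levels between stages below therefore also give values after a GC trend was removed from each library.

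**Figure D2:**
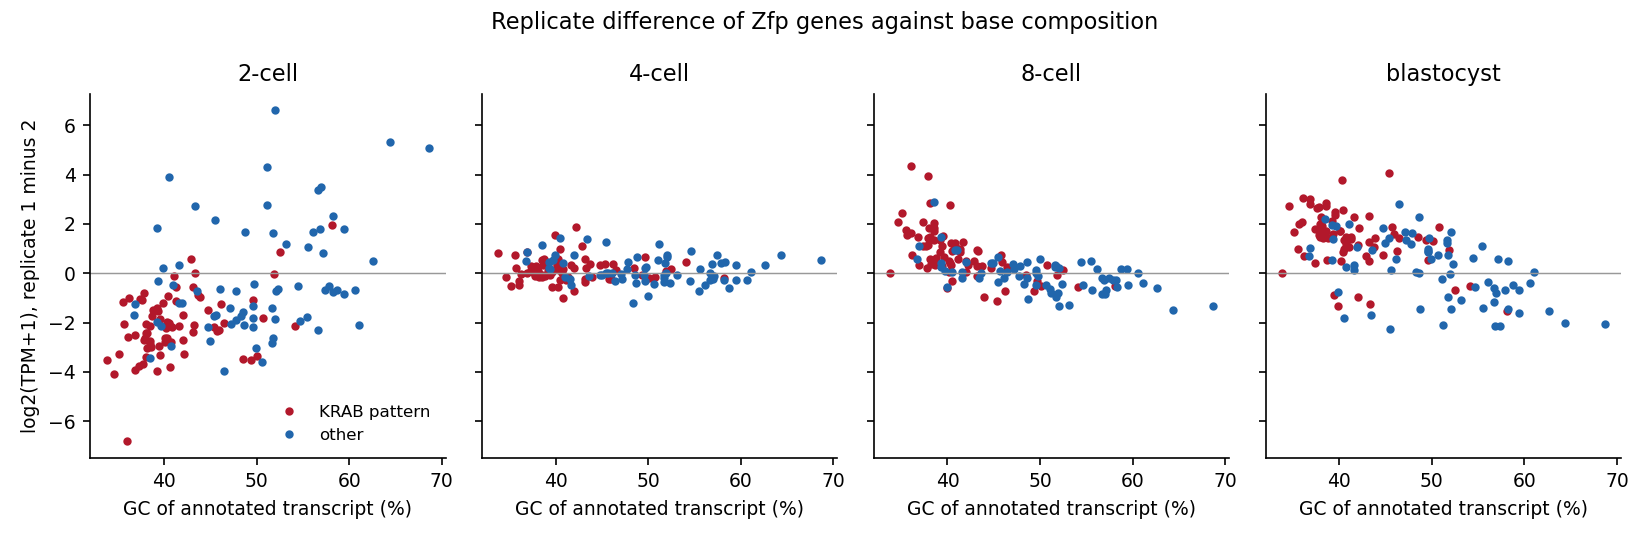
Difference of log2(TPM + 1), replicate 1 minus replicate 2 (vertical axis), against the GC percent of the annotated transcript (horizontal axis) for each transcribed member at 4 stages, with KRAB members in red and others in blue. The 4-cell points stay near 0, while low-GC genes lie below 0 at 2-cell and above 0 at 8-cell and in blastocysts.

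From sperm to oocyte, members changed in both directions. In the fit that includes sperm 144 members were tested, of which 24 were higher in oocytes and 29 lower. Over all 10735 genes 53.6% were called, 17.4% higher and 36.2% lower. The median change was 0.00, against −0.90 over all genes, and 94 of 144 members lay above the median of all genes. The directions depend on scaling. After quantile normalization 51 were higher and 16 lower, beside 26.8% and 26.6% of all genes, and with the GC trend removed 42 and 25, beside 25.9% and 28.3%. Among single libraries, leaving out sperm replicate 2 lowered the number of calls most. The leukocyte markers Ptprc, Cd52 and Lyz2 summed to 10138 and 1858 TPM in the sperm libraries and to between 0.184 and 22.8 elsewhere. All 3 were at 1 TPM or more in both sperm libraries. Of 3 epididymal epithelium markers only Lcn8 had a merged transcript, at 8.01 and 2.19 TPM in sperm and at most 0.222 elsewhere. What part such cells have in the sperm values was not tested.

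Among the genes higher in oocytes, Zfp979, a KRAB member of the chromosome 4 cluster, measured 0.509 and 0.0709 TPM in sperm and 49.7 and 43.2 in oocytes, with a log2 change of 5.22 ± 1.13 (SE) and adjusted p = 0.00106. Zfp957 measured 4.08 and 4.18 in sperm and 134 and 201 in oocytes, with a log2 change of 5.01 ± 0.76 (SE) and adjusted p = 4.84e-05. Zfp280b rose from 0.573 and 0.442 to 26.2 and 75.4, with a log2 change of 4.92 ± 0.82 (SE) and adjusted p = 0.000117. In each of the 3 both oocyte libraries lay above both sperm libraries, as they did in Zfp735 (KRAB) and Zfp655 (KRAB). Zfp735 was listed at 0 in both sperm libraries and at 42.3 and 17.9 in oocytes. Zfp655 rose from 3.07 and 1.49 to 61.5 and 123, with a log2 change of 4.79 ± 0.84 (SE) and adjusted p = 0.000187.

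Among those lower in oocytes, Zfp771 stood at 679.7 and 54.5 TPM in sperm and 2.22 and 0.112 in oocytes, with a log2 change of −6.68 ± 1.35 (SE) and adjusted p = 0.000618, with sperm replicate 1 far above replicate 2. Zfp445, a KRAB protein that maintains imprints, measured 15.1 and 345 in sperm and 0.743 and 0.212 in oocytes, with a log2 change of −5.68 ± 1.04 (SE) and adjusted p = 0.000268, and there it was sperm replicate 2 that was high. Zfp622, a factor of large ribosomal subunit assembly, fell from 21.2 and 22.6 to 0.034 and 0, with a log2 change of −4.49 ± 1.08 (SE) and adjusted p = 0.00236. Its sperm libraries were alike and its oocyte libraries at or near 0. Zfp444 fell from 99.6 and 17.8 to 0.0379 and 0.0405, with a log2 change of −5.39 ± 1.41 (SE) and adjusted p = 0.0041, and Zfp292 from 28.8 and 31.1 to 0.149 and 0.677, with a log2 change of −4.48 ± 1.00 (SE) and adjusted p = 0.00135. Zfp771 and Zfp444 were no longer called without sperm replicate 1 (adjusted p = 0.0528 and 0.131). The testis-linked list had 2 tested members of 7, of which Zfp39 fell from 10.9 and 13.4 to 0.381 and 0.816, with a log2 change of −3.05 ± 0.62 (SE) and adjusted p = 0.000617, while Zfp60 measured 28.3 and 4.75 in sperm and 11.9 and 10.6 in oocytes.

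From oocyte to 1-cell, no member was called, beside 0.38% of all genes. By limma without adjustment 15 members had p under 0.05, and all 15 were higher at 1-cell, where 7.67% of all genes were higher and 1.53% lower by the same measure. The median change was 0.35 among members and 0.23 over all genes, with 0.54 in KRAB members and 0.16 in others. After quantile normalization the member median was 0.03 and after the GC trend was removed −0.03. Members called were 0 and 1, beside 0.09% and 0.531% of all genes. Weighting the spread by stage gave 1 call, beside 0.86% of all genes. Calls also appeared without either 2-cell library. Zfp655, the third highest member at 1-cell, measured 61.5 and 123 TPM in oocytes and 201 and 231 at 1-cell.

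From 1-cell to 2-cell, when the embryonic genome is known to become broadly active, 32 members rose and 8 fell of 143 tested, 40 in all. Over all genes 32.3% were called, 26.1% higher and 6.2% lower. The member median was 0.71, against 0.72 over all genes, and 70 of 143 members lay above the median of all genes. KRAB members gave 13 rises and 6 falls with a median of 0.47, and the others 19 rises and 2 falls with a median of 1.10. The split of directions depends on scaling. Quantile normalization moved the median of all genes from 0.72 to −0.12 and gave 18 rises and 25 falls, beside 15.9% and 17.6% of all genes. With the GC trend removed there were 27 rises and 18 falls, beside 17.7% and 16.7% of all genes. In that last setting the KRAB and other medians were 0.12 and 0.13. A fit on the 4 libraries of the step called 9 members and one with the spread weighted by stage 17. All genes were called at 10.8% and 15.3% in these settings. The number of calls fell without either 1-cell library and rose without either 2-cell library.

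Zfp622 made the largest rise. It measured 0.277 and 0.543 TPM at 1-cell and 2210.1 and 111 at 2-cell, with a log2 change of 8.47 ± 1.12 (SE) and adjusted p = 0.000193, with 2-cell replicate 1 far above replicate 2 and both far above the 1-cell libraries. Zfp707, a KRAB member, measured 0.54 and 0.16 at 1-cell and 218 and 54.8 at 2-cell, with a log2 change of 6.37 ± 0.78 (SE) and adjusted p = 0.000121. Zfp775 measured 4.19 and 1.62 at 1-cell and 381 and 36.1 at 2-cell, with a log2 change of 5.01 ± 0.94 (SE) and adjusted p = 0.00135. All 4 of Zfp622, Zfp707, Zfp775 and Zfp637 had 2-cell libraries above both 1-cell libraries and stayed called under every alternative that could be computed for them. Zfp637 rose from 0.186 and 0.705 to 60 and 18.5, with a log2 change of 4.60 ± 0.79 (SE) and adjusted p = 0.000755. Zfp771 rose from 0.178 and 0.676 to 225 and 5.66, with a log2 change of 4.79 ± 1.25 (SE) and adjusted p = 0.0101, and was called under 17 of 22 alternatives. It was lost after quantile normalization, in a fit on the 4 libraries of the step, and without either 1-cell library or 2-cell replicate 1, with adjusted p up to 0.119.

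Of the falls, Zfp750, an epidermal differentiation factor, measured 218 and 75.1 TPM at 1-cell and 0.952 and 14.9 at 2-cell, with a log2 change of −4.54 ± 1.09 (SE) and adjusted p = 0.00621. The other 4 named falls are KRAB members of low GC content that lay lower in 2-cell replicate 1 than in replicate 2. Zfp735 fell from 29.3 and 43 to 0 and 10.4, with a log2 change of −3.43 ± 0.90 (SE) and adjusted p = 0.0102, and Zfp955b from 31.6 and 61.4 to 1.07 and 8, with a log2 change of −3.39 ± 0.89 (SE) and adjusted p = 0.0106. Zfp58 fell from 27.9 and 28 to 0.658 and 10.5, with a log2 change of −2.73 ± 0.89 (SE) and adjusted p = 0.0299, and Zfp873 from 31.1 and 27.1 to 2.17 and 5.85, with a log2 change of −2.69 ± 0.74 (SE) and adjusted p = 0.0134. These calls held under 19 of 22, 18 of 22, 16 of 22 and 18 of 22 alternatives in that order, and Zfp750 under 21 of 22. Single libraries that ended a call were 1-cell replicate 1 for Zfp750, Zfp58 and Zfp873, 1-cell replicate 2 for the 4 KRAB members, and 2-cell replicate 1 for Zfp735, Zfp955b and Zfp58. The highest adjusted p over all alternatives was 0.071 for Zfp750, 0.11 for Zfp735, 0.0959 for Zfp955b, 0.21 for Zfp58 and 0.138 for Zfp873.

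**Figure D3:**
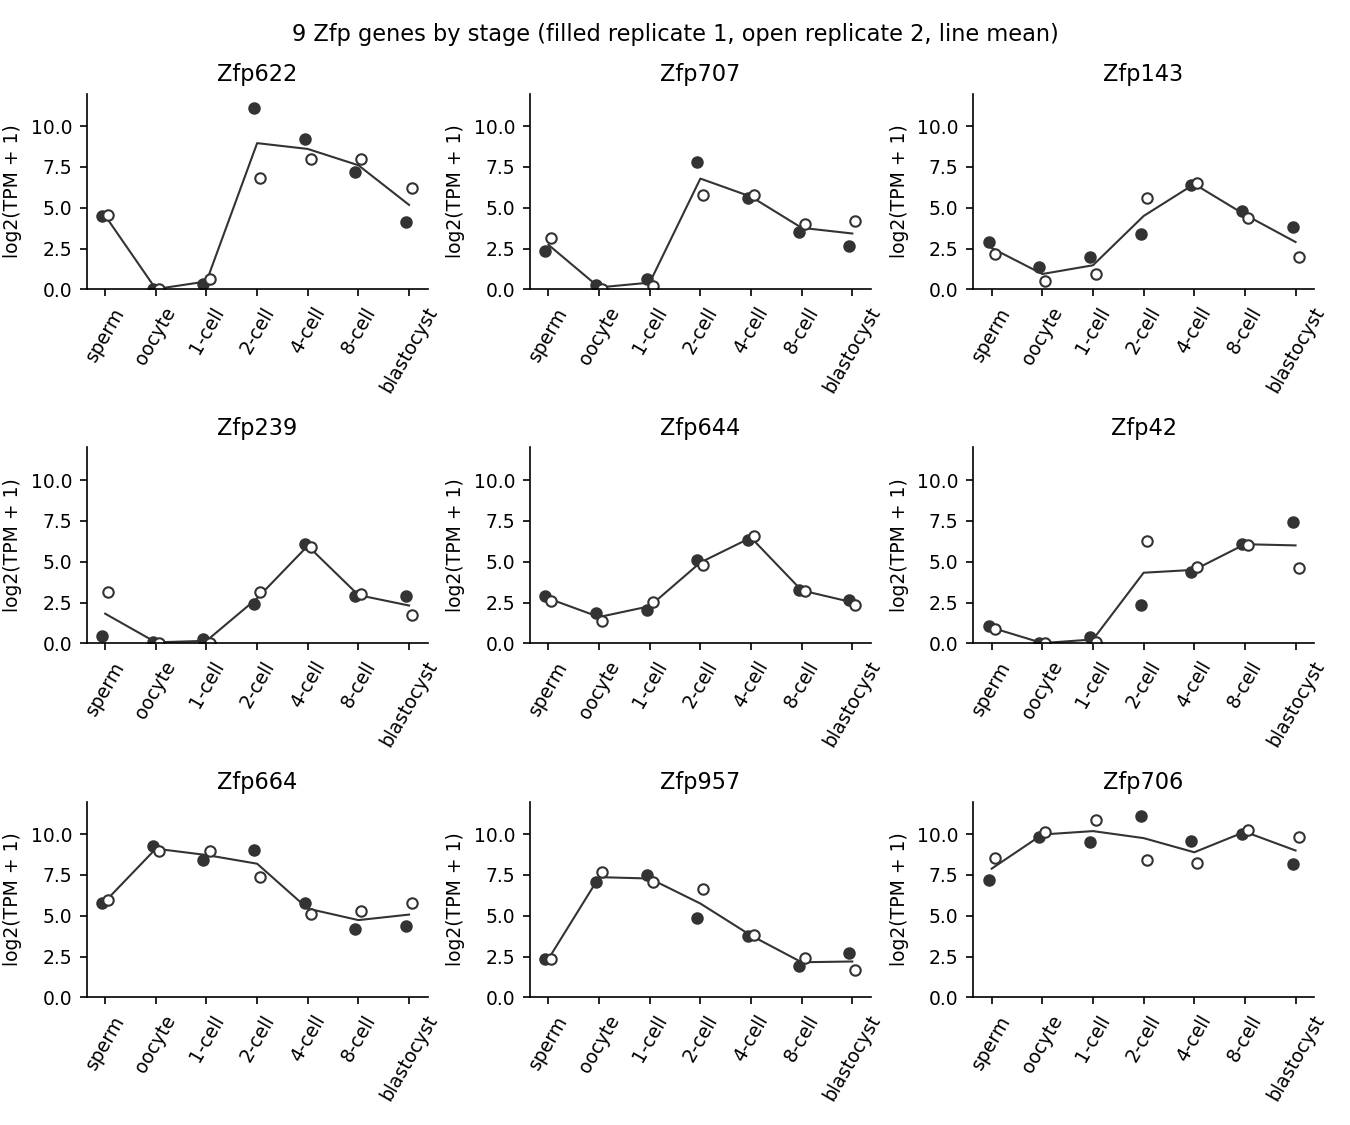
Levels as log2(TPM + 1) (vertical axis) of 9 named members over the 7 stages, with filled points for replicate 1, open points for replicate 2 and lines for stage means. Zfp622 and Zfp707 are near 0 in oocytes and at 1-cell and high at 2-cell, Zfp143, Zfp239 and Zfp644 are highest at 4-cell, and Zfp664 and Zfp957 are highest in oocytes and 1-cell embryos.

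Known regulators were spread over these groups. In the pluripotency list 4 of 6 members were tested and 2 rose from 1-cell to 2-cell, beside 26.1% of all genes, while Zfp281 and Zfp462 had no merged transcript. Zfp42, the pluripotency marker also called Rex1, rose from 0.319 and 0.0617 TPM at 1-cell to 4.13 and 78 at 2-cell, with a log2 change of 4.09 ± 1.10 (SE) and adjusted p = 0.0116, and measured 19.5 and 24.2 at 4-cell, 67.4 and 65.7 at 8-cell and 169 and 23.2 in blastocysts. It was among the 3 highest members in blastocysts. Zfp217 rose from 1.44 and 0.0486 to 5.66 and 40.5, with a log2 change of 3.38 ± 0.77 (SE) and adjusted p = 0.00467. Zfp296, a factor of embryonic stem cells, measured 38.6 and 17.9 at 1-cell and 220.3 and 63.3 at 2-cell without passing the test, and was called higher at 4-cell than in oocytes, with a log2 change of 2.86 ± 0.80 (SE) and adjusted p = 0.00759. Its call was lost after quantile normalization (adjusted p = 0.0664) and with the GC trend removed (adjusted p = 0.0861), and without 4-cell replicate 1 (adjusted p = 0.0597). The calls of Zfp42 and Zfp217 from 1-cell to 2-cell were kept in both scalings, but Zfp42 was lost without either 1-cell library or 2-cell replicate 2 and Zfp217 without 1-cell replicate 2 (adjusted p up to 0.0853 and 0.0727 over the alternatives). Zfp322a measured 65.2 and 23.6 at 1-cell and 10.3 and 121 at 2-cell, and was not called in either comparison.

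In the list of KRAB proteins with known retroelement or imprinted targets, 5 of 6 were tested and Zfp819 had no merged transcript. From 1-cell to 2-cell 1 rose, beside 26.1% of all genes, and from oocyte to 4-cell 4 rose and none fell, beside 41.4% of all genes higher and 14.1% lower. Zfp445 measured 4.99 and 4.46 TPM at 1-cell and 60.2 and 59.5 at 2-cell, with a log2 change of 3.41 ± 0.68 (SE) and adjusted p = 0.00212, with 2-cell libraries that were alike. This call was lost in a fit on the 4 libraries of the step (adjusted p = 0.0606). Zfp809, which silences murine leukemia virus, rose from 0.229 and 1.26 in oocytes to 20.1 and 23.8 at 4-cell, with a log2 change of 3.78 ± 0.89 (SE) and adjusted p = 0.00263. Zfp568, which represses a placental Igf2 transcript, rose from 5.56 and 4.75 to 43.8 and 49.1, with a log2 change of 2.95 ± 0.82 (SE) and adjusted p = 0.00742, and Zfp932 from 8.66 and 7.34 to 53.7 and 59.2, with a log2 change of 2.68 ± 1.04 (SE) and adjusted p = 0.0402. Zfp708 measured 5.45 and 5.82 in oocytes and 4.5 and 4.95 at 4-cell and was not called, but was called lower after quantile normalization (adjusted p = 0.0484). Zfp445 and Zfp809 were also called after quantile normalization and with the GC trend removed, Zfp568 was lost in the first of these (adjusted p = 0.0913) and Zfp932 in both (adjusted p = 0.307 and 0.0631). Zfp568 was also lost without 4-cell replicate 2, and Zfp932 without any 1 library of oocyte, 1-cell or 4-cell.

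Among members with roles in RNA, ribosomes, ubiquitin or the spindle, 8 of 10 were tested and 2 rose from 1-cell to 2-cell. They were Zfp622 and Zfp593, a ribosome assembly factor that rose from 1.59 and 1.88 to 44.6 and 12.3 TPM, with a log2 change of 3.17 ± 0.81 (SE) and adjusted p = 0.00881. Of the same 8, 6 rose from oocyte to 4-cell and none fell, beside 41.4% of all genes higher and 14.1% lower. There were 2 rises after quantile normalization and 4 with the GC trend removed, where 25.6% and 29.2% of all genes were higher. At 2-cell the call of Zfp593 was lost in both settings (adjusted p = 0.173 and 0.0691) and without 1-cell replicate 1 or 2 (adjusted p = 0.0514 and 0.0502). Zfp207, a spindle checkpoint protein, measured 12.5 and 34.1 in oocytes and 176 and 127 at 4-cell, with a log2 change of 2.79 ± 0.82 (SE) and adjusted p = 0.0106, and Zfp106, an RNA-binding protein, measured 22.7 and 12 in oocytes and 137 and 139 at 4-cell, with a log2 change of 2.99 ± 0.79 (SE) and adjusted p = 0.00561. Zfp207 was lost after quantile normalization (adjusted p = 0.0534) and without oocyte replicate 1 or 4-cell replicate 1, and Zfp106 in no alternative (adjusted p up to 0.0938 and 0.0453). Widely expressed transcription factors gave 4 rises of 8 tested at the same 1-cell to 2-cell step, namely Zfp143, Zfp263, Zfp410 and Zfp644, beside 26.1% of all genes. Zfp143, an activator of promoters of RNA and housekeeping genes, rose from 2.99 and 0.952 to 9.59 and 47.2, with a log2 change of 3.02 ± 0.85 (SE) and adjusted p = 0.0149, and Zfp410, a regulator of Chd4, from 6.22 and 5.03 to 24.7 and 64, with a log2 change of 2.63 ± 0.68 (SE) and adjusted p = 0.00955. After quantile normalization 3 of the 4 calls were left, without Zfp644 (adjusted p = 0.0688), and with the GC trend removed 4. In these settings 15.9% and 17.7% of all genes rose. Zfp143 and Zfp410 were lost without 1-cell replicate 2, and Zfp143 also without 2-cell replicate 2. Both were lost in a fit on the 4 libraries of the step as well (adjusted p = 0.116 for Zfp143 and 0.143 for Zfp410).

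The KRAB corepressor pathway was covered by 24 tested genes of a list of 27. From 1-cell to 2-cell 7 rose and 4 fell, beside 26.1% and 6.2% of all genes. After either quantile normalization or removal of the GC trend 5 rose and 5 fell. Of all genes, 15.9% rose and 17.6% fell in the first of these settings, and 17.7% and 16.7% in the second. Trim28, the scaffold that KRAB domains bind, measured 24.3 and 10.8 TPM at 1-cell, 78.2 and 68.5 at 2-cell and 141 and 149 at 4-cell. Its increase at the 2-cell stage over 1-cell was called, with a log2 change of 2.10 ± 0.70 (SE) and adjusted p = 0.034, and these libraries did not overlap. That call was lost in both settings (adjusted p = 0.0748 and 0.546) and without any 1 library of 4-cell or 8-cell, 1-cell replicate 2 or 2-cell replicate 1. It was also lost with the spread weighted by stage (adjusted p = 0.188) and in a fit on the 4 libraries of the step (adjusted p = 0.203). The other called rises, Mta2, Suv39h1, Cbx3, Hdac1, Ehmt2 and Mbd3, each had a larger log2 change than Trim28. Cbx1 and Mphosph8 were among the falls. Alternatives for these genes are not given here. Setdb1, the histone methyltransferase recruited by Trim28, measured 57.9 and 24.7 at 1-cell and 212 and 70.3 at 2-cell and was not called, with a log2 change of 1.66 ± 0.77 (SE) and adjusted p = 0.112. Uhrf1, which guides the maintenance methyltransferase, fell from 463 and 206 to 14.5 and 64.1, with a log2 change of −3.28 ± 1.11 (SE) and adjusted p = 0.0351, and Dnmt1, that methyltransferase, from 231 and 159.6 to 19.7 and 27.5, with a log2 change of −2.99 ± 0.67 (SE) and adjusted p = 0.00441. The calls of Uhrf1 and Dnmt1 were lost with the spread weighted by stage (adjusted p = 0.153 and 0.0507). They were also lost in a fit on the 4 libraries of the step (adjusted p = 0.0751 and 0.0731). Uhrf1 was lost without any 1 library of 1-cell or blastocyst or 2-cell replicate 1 (adjusted p up to 0.194), and Setdb1 was called without 2-cell replicate 2 (adjusted p = 0.0308).

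From 2-cell to 4-cell, 2 members rose and 2 fell, beside 3.4% of all genes called, 1.58% higher and 1.82% lower. The member median was 0.03 and that of all genes 0.04. Zfp239 measured 4.29 and 7.77 TPM at 2-cell and 66 and 58.5 at 4-cell, with a log2 change of 3.21 ± 0.62 (SE) and adjusted p = 0.023. Zfp180 measured 0.858 and 1.51 at 2-cell and 12.1 and 9.88 at 4-cell, with a log2 change of 2.46 ± 0.56 (SE) and adjusted p = 0.0362. In both genes the 4-cell libraries lay above the 2-cell libraries. Zfp583, a KRAB member, fell from 24.7 and 16.4 to 2.33 and 0.537, with a log2 change of −3.23 ± 0.62 (SE) and adjusted p = 0.023, and Zfp703 from 38.5 and 62.1 to 4.93 and 6.24, with a log2 change of −2.93 ± 0.71 (SE) and adjusted p = 0.0439. The 4 calls held under 15 of 22, 10 of 22, 15 of 22 and 9 of 22 alternatives. Quantile normalization gave 7 rises and 7 falls, beside 10.8% of all genes called in that setting, and removal of the GC trend 7 and 5, beside 10.7%. Each of the 4 was lost without any 1 library of 4-cell or 8-cell, and Zfp180 and Zfp703 also without any 1 of oocyte or 1-cell. The number of calls fell without any 1 library of oocyte, 1-cell, 4-cell or 8-cell and rose without either 2-cell library.

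From 4-cell to 8-cell, none of the 143 members rose and 3 fell, beside 1.67% of all genes called, 0.77% higher and 0.9% lower. Most others had lower values at 8-cell without passing the test. Both 8-cell libraries lay below both 4-cell libraries in 82 members, beside 47.3% of all genes, and 110 members had a negative change, against 6361 of 10000 genes. The median change was −0.78 among members and −0.34 over all genes, and it was −0.79 in KRAB members and −0.78 in the others. With the GC trend removed the medians were −0.03 in KRAB members, −0.47 in the others and −0.00 over all genes, and after quantile normalization −0.34 in all members and −0.01 over all genes. Zfp644, a partner of the H3K9 methyltransferases, measured 81 and 96.5 TPM at 4-cell and 8.61 and 8.38 at 8-cell, with a log2 change of −3.24 ± 0.63 (SE) and adjusted p = 0.0199. Zfp239 measured 66 and 58.5 at 4-cell and 6.45 and 7.14 at 8-cell, with a log2 change of −3.02 ± 0.62 (SE) and adjusted p = 0.0251, and Zfp639 78.3 and 76.7 at 4-cell and 8.21 and 9.63 at 8-cell, with a log2 change of −2.99 ± 0.64 (SE) and adjusted p = 0.031. In all 3 genes both 8-cell libraries lay well below both 4-cell libraries.

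The number of calls at this step depended on the spread that was assumed. Over all genes the replicate SD had a median of 0.176 at 4-cell and 0.253 at 8-cell, below the 0.423 to 0.977 of other stages, while over members 8-cell, at 0.364, lay above oocyte and 1-cell, at 0.286 and 0.347. A fit on the 4 libraries of the transition called 45 members, 3 of them higher, which is 31.5% beside 31.7% of all genes. One with the spread weighted by stage called 68, 5 of them higher, or 47.6% beside 39.2% of all genes. In the fit over all stages the number rose without either 2-cell library and fell without any 1 library of 1-cell, 4-cell or 8-cell. The 3 named calls held under 17 of 21, 12 of 22 and 15 of 22 alternatives. They were lost without any 1 library of 4-cell or 8-cell, and of them Zfp239 and Zfp639 also without either 1-cell library and Zfp239 without either oocyte library.

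From 8-cell to blastocyst, no member was called, beside 3% of all genes. By limma without adjustment 1 member was higher and 4 were lower at p under 0.05, beside 6.71% and 7.7% of all genes. The medians were −0.21 in members and −0.14 over all genes. Quantile normalization gave 2 calls, the weighted spread 2 and removal of the GC trend 3, beside 4.29%, 5.55% and 6.03% of all genes. Calls also appeared without either 2-cell library and without blastocyst replicate 1. Zfp706, a small protein linked to exit from the pluripotent state, had the highest mean of the members in blastocysts and at every other stage but sperm, with 1052 and 1217 TPM at 8-cell and 283 and 919 in blastocysts. Zfp64 measured 8.29 and 9.56 at 8-cell and 25.8 and 116 in blastocysts, higher in blastocyst libraries without passing the test.

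Over the whole span from oocyte to 4-cell, 61 members rose and 14 fell, 75 calls of 143. Over all genes 55.5% were called, 41.4% higher and 14.1% lower. This comparison shares its libraries with those above. The member median was 1.54 and that of all genes 1.20. KRAB members gave 33 rises and 3 falls with a median of 1.72, and the others 28 rises and 11 falls with a median of 1.30. Quantile normalization turned the split to 28 rises and 32 falls, beside 25.6% and 27.0% of all genes, at medians of 0.02 in members and −0.05 over all genes. Removing the GC trend turned it to 44 and 29, beside 29.2% and 27.9%. The number of calls fell most without either 4-cell library or oocyte replicate 2.

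Zfp622 measured 0.034 and 0 TPM in oocytes and 587 and 257 at 4-cell, with a log2 change of 8.58 ± 1.12 (SE) and adjusted p = 3.65e-05. Zfp239 measured 0.0793 and 0.0183 in oocytes and 66 and 58.5 at 4-cell, with a log2 change of 5.91 ± 0.62 (SE) and adjusted p = 9.32e-06, and Zfp143 1.57 and 0.446 in oocytes and 84.5 and 89 at 4-cell, with a log2 change of 5.51 ± 0.85 (SE) and adjusted p = 0.000121. Oocyte levels of the 3 were near 0 and their 4-cell libraries were far above. Zfp985, a KRAB member of the chromosome 4 cluster, was listed at 0 in both oocyte libraries and at 46.1 and 64 at 4-cell, and its call was lost without either oocyte library (adjusted p up to 0.0543). Maternal transcripts that fell included Zfp750, from 47.1 and 439.5 to 1.18 and 3.09, with a log2 change of −5.61 ± 1.09 (SE) and adjusted p = 0.00068, and Zfp423, from 29.5 and 45.5 to 0.835 and 0.816, with a log2 change of −4.37 ± 0.82 (SE) and adjusted p = 0.000537. Zfp664 fell from 618 and 492 to 53.2 and 33.7, with a log2 change of −3.67 ± 0.80 (SE) and adjusted p = 0.00154, and Zfp957 from 134 and 201 to 12.5 and 13.2, with a log2 change of −3.57 ± 0.74 (SE) and adjusted p = 0.00105, again with no overlap between stages.

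**Figure D4:**
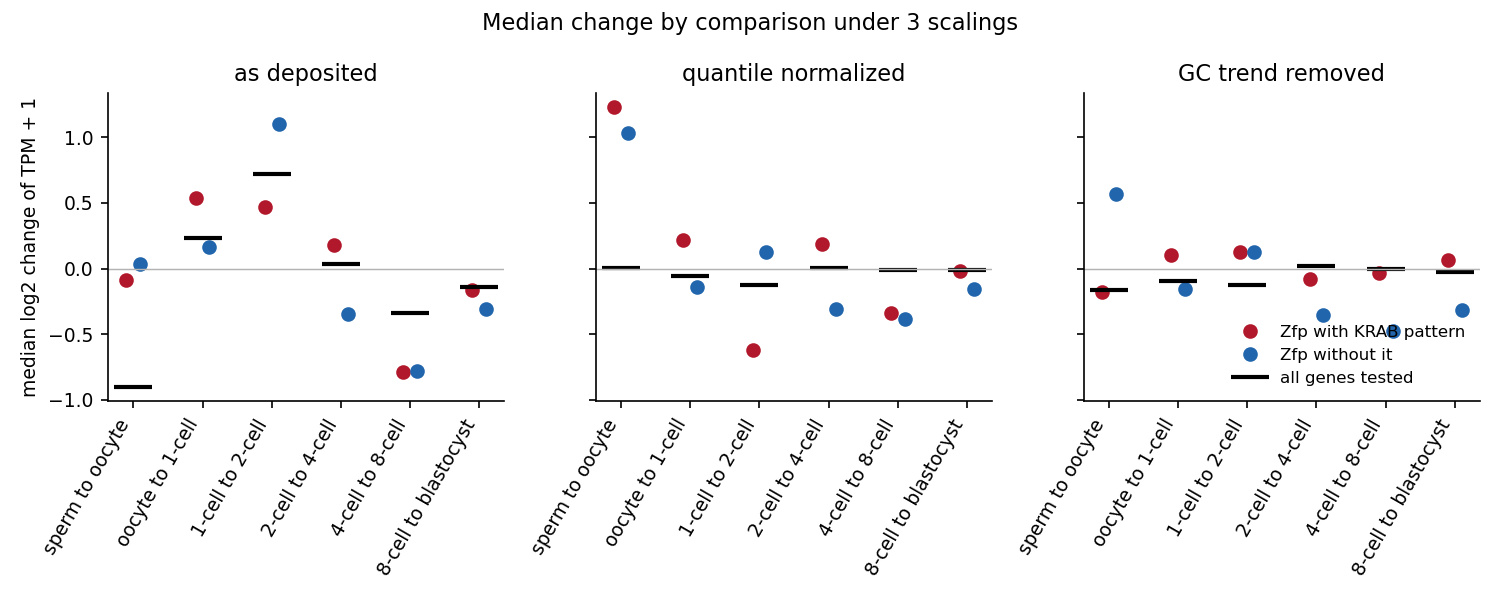
Median log2 change (vertical axis) of KRAB members (red), other members (blue) and all genes tested (black bars) in 6 comparisons, from the deposited TPM, after quantile normalization and after a GC trend was removed from each library. From 4-cell to 8-cell the deposited values give −0.79 and −0.78 for the member groups, and with the GC trend removed −0.03 and −0.47.

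Other zinc finger families were read in the same fit. Of 20 Zbtb genes tested, which carry a BTB domain in front of their fingers, 7 rose and none fell from 1-cell to 2-cell, and of 11 Zscan and Zkscan genes, which carry a SCAN domain, 6 rose and none fell, beside 26.1% of all genes higher and 6.2% lower. Their medians at that step were 1.78 and 1.75. Quantile normalization gave 3 rises and 2 falls in Zbtb genes and 3 rises in the others, at medians of 0.57 and 0.40, and removal of the GC trend 7 and 5 rises, at medians of 1.14 and 1.09. In these settings 15.9% and 17.7% of all genes rose, and 17.6% and 16.7% fell. From 4-cell to 8-cell their medians were −0.52 and −0.94, where that of all genes was −0.34. At this step they were −0.12 and −0.46 after quantile normalization and −0.16 and −0.42 with the GC trend removed. The families are small, and no test of their difference from the Zfp genes was made.

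Long reads gave the structures of 218 merged transcripts of the 145 members, with a median length of 1532 bases and 4 exons, against 1392 bases and 6 exons over all protein-coding transcripts. A single transcript was found for 104 members, 2 for 23 and 3 or more for 18. Of the 218, 87 repeated an annotated intron chain, or 39.9% (Wilson 95% interval 33.6 to 46.5), and 62 shared an intron or overlapped exon and intron, or 28.4% (22.9 to 34.8). Another 63, or 28.9% (23.3 to 35.2), were contained in an annotated transcript, against 19.1% (18.5 to 19.7) of protein-coding transcripts. Intervals cover counting error only, since each stage had 1 long-read pool. Single-exon transcripts made up 22.5% (17.4 to 28.5), against 11.6% (11.1 to 12.1), and all transcripts of 32 members had 1 exon.

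Whole coding regions were covered by 93 of the 218, or 42.7% (36.3 to 49.3), against 54.6% (53.9 to 55.4) of protein-coding transcripts. Among transcripts with more than 1 exon the values were 53.8% (46.3 to 61.2) and 60.6% (59.8 to 61.3). The share in the long-read files of single stages was 56.7% in sperm, 26.6% in oocytes and 13.6% in 1-cell embryos. From the 2-cell stage on it was 54.5%, 58.9%, 51.4% and 49.0% in stage order. For protein-coding transcripts it was 72.6%, 35.3%, 35.3%, 61.4%, 67.0%, 63.8% and 64.7% from sperm to blastocyst, also lowest in oocytes and at 1-cell. Transcript length moved with it, with medians from oocyte to 4-cell of 731, 618, 1680 and 1742 bases for members and 883, 768, 1387 and 1403 bases for all protein-coding transcripts. Its part in the shares was not tested.

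Zinc fingers were often outside the long-read transcripts. Of 209 transcripts of the 141 members with an annotated finger, 90 covered every finger, 43.1% (36.5 to 49.8), 26 covered some and 93 covered none, 44.5% (37.9 to 51.3). A transcript with all fingers was found for 64 of the 141 members. With an annotated intron chain 58 of 84 covered every finger, and among single-exon transcripts 2 of 45. In KRAB genes 36 of 107 transcripts held both the KRAB box and every finger, 26 held the box and no finger, 8 held every finger without the box and 29 held neither. A box without fingers was found in 21 of 75 KRAB genes and a transcript with both in 29, and 1 gene had both kinds.

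**Figure D5:**
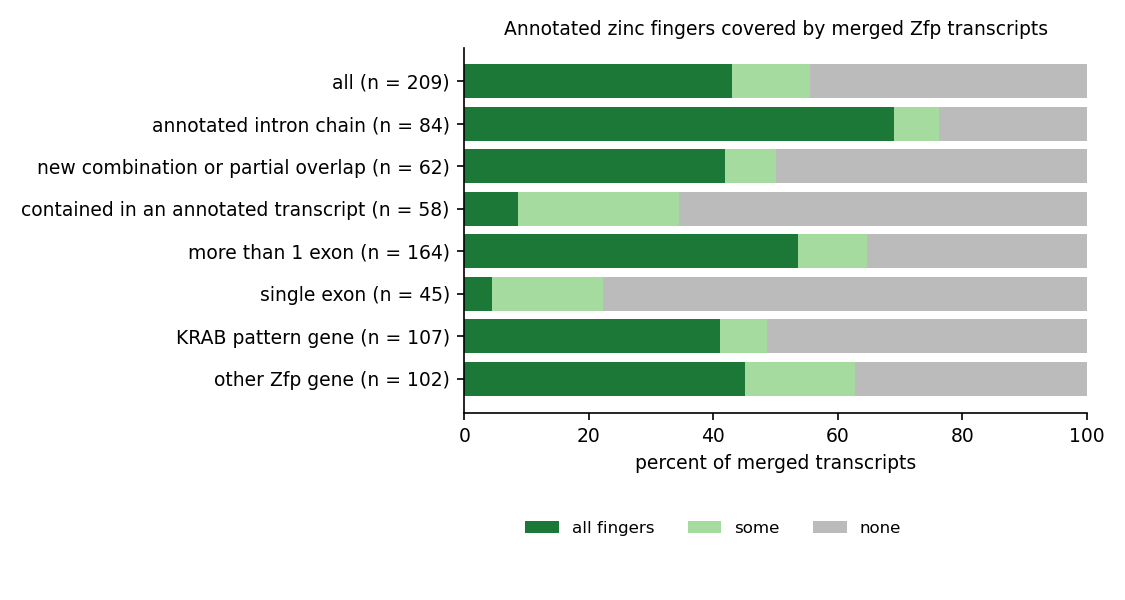
Percent of merged Zfp transcripts (horizontal axis) that cover all, some or none of the annotated fingers of their gene, for 209 transcripts in total and by structure, number of exons and KRAB pattern. Transcripts with an annotated intron chain cover all fingers in 58 of 84 cases, and single-exon transcripts in 2 of 45.

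In Zfp655 the box and the fingers lay in different transcripts. Of its 5 merged transcripts (chr5:145231715-145247302, plus strand), all with annotated intron chains, 1 reaches the last exon and covers its 6 fingers without the KRAB box, and 4 end earlier and cover no finger, 2 of them with the box. The long form averaged 47.1 TPM over the 14 libraries, and the 4 short forms between 1.71 and 5.30. Zfp978, a KRAB gene of the chromosome 4 cluster (chr4:147361303-147391004, plus strand), had 7 transcripts, the most of any member, all with new intron combinations, and none covered its 3 fingers. Zfp821 (chr8:109705546-109724932, plus strand) had 6, which started 10313 or 10315 bases from the nearest annotated start, shared an intron with the annotation and covered both fingers. Its level was 14.8 and 8.36 TPM at 1-cell, 84.9 and 47.7 at 2-cell and 113 and 122 at 4-cell, with a log2 change of 2.41 ± 0.72 (SE) and adjusted p = 0.0202 from 1-cell to 2-cell, a call lost after quantile normalization (adjusted p = 0.0668) and with the GC trend removed (adjusted p = 0.197), and also without 1-cell replicate 2 or 2-cell replicate 1 (adjusted p = 0.128 and 0.0685). Members of the chromosome 4 cluster are close copies of each other, and salmon may divide reads between them, so their levels are uncertain.

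Starts over 300 bases from any annotated start were found in 73 of 218 transcripts, 33.5% (27.6 to 40.0), against 26.2% (25.5 to 26.9) of protein-coding transcripts. With more than 1 exon the shares were 19.5% (14.3 to 26.2) and 19.3% (18.7 to 20.0). The 5 most abundant transcripts of this kind are short single-exon pieces contained in annotated exons, and they carry the whole level of Zfp322a (272 bases), Zfp985 (198 bases), Zfp710 (1103 bases) and Zfp930 (392 bases). For Zfp936, a KRAB gene, a piece of 246 bases averaged 79.9 TPM over the 14 libraries and a transcript with all 11 fingers 29.8. Levels of these genes therefore rest on a small part of the gene. The single transcript of Zfp735 has 476 bases and 1 exon.

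The balance between transcripts of a gene was tested for 83 transcripts of 28 members, with no removal of a GC trend. From 1-cell to 2-cell 7 transcripts of 4 members were called at a change of share over 0.1, beside 11.2% of all 7820 transcripts tested. No transcript of a member was called in the other 4 steps, where the background was 0.102%, 0%, 0.0767% and 0.0512% in stage order. Zfp207 showed 2 changes. Its annotated form of 11 exons with both fingers went from a share of 0.627 to 0.293 (adjusted p = 0.0374), and a single-exon transcript of 1550 bases that covers no finger from 0.00458 to 0.501 (adjusted p = 0.00305). Zfp212 changed from its annotated form with 4 fingers, at 0.996 to 0.413 (adjusted p = 0.0106), to a form of 407 bases without a finger, from 0 to 0.575 (adjusted p = 0.00978). In Zfp560, a KRAB gene, a form with a new intron combination went from 0.0323 to 0.614 (adjusted p = 0.00731) and the annotated one from 0.968 to 0.338 (adjusted p = 0.00782), and neither form covers a finger. In Zfp978 a form with the KRAB box and no finger went from 0.0467 to 0.519 (adjusted p = 0.0106). The number of calls fell most without 1-cell replicate 1 and rose without either 2-cell library.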

How the data were processed

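The authors aligned the long reads of each stage to mm10, removed redundant and poorly supported transcripts, and joined the 7 sets with Cuffmerge. They deposited exon coordinates and the TPM that salmon gave the merged transcripts in each library. TPM keeps no depth, so the depth of a library is not known from the deposited values, and no count test was run. The study itself reports total reads and GC percent for each short-read library. Between replicates, total reads differed most at 1-cell and 2-cell, and GC percent at 2-cell, 8-cell and in blastocysts. Neither was used here, and their part in the replicate differences was not tested. TPM over the transcripts of a library's own stage was not used. Merged transcripts were assigned by same-strand exon overlap with GENCODE vM21 and gene TPM was their sum. The study's methods name vM20. Samples were grouped by title. The 8-cell titles and file names number the replicates in opposite ways, and the title was followed. By title, 8-cell replicate 1 was the lower in GC-rich genes (rho −0.47 over all genes with a GC value). The study lists the higher GC percent for its 8-cell replicate 1. At 2-cell and in blastocysts the study's order and the values here go the same way. The title numbers may therefore be the reverse of the study's at 8-cell, which was not tested. The labels do not say whether replicates came from separate parents, so p-values measure the spread between these samples.

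Tests used limma 3.58.1 in R 4.3.3 (lmFit, contrasts.fit, eBayes with trend) on log2(TPM + 1), with a filter of at least 1 TPM in at least 2 libraries, stage as the only term, 12 libraries (14 with sperm) and Benjamini-Hochberg adjustment over all genes. Isoform balance used log2 of transcript over other TPM, with a pseudocount of 1. The KRAB and finger patterns were searched in translations of the annotated coding transcripts. The named genes are the 10 highest in mean, the highest 3 of each stage, the 5 largest called rises and falls of each comparison with libraries that do not overlap, 5 genes each by isoform balance, number of transcripts and new starts, and the role lists. The text describes most and not all of them. The members and lists were chosen with earlier results of these data known. Removal of a GC trend (loess on the GC percent of the annotated transcript, in genes with a value) was chosen after seeing the data. Python 3.11.15, pandas 2.3.3 and numpy 2.4.6 were also used.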

Additional observations from a re-analysis of the deposited data

How the results depend on the processing

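Counts of called members differed over 1.5 times in these settings. From oocyte to 1-cell (0 called) 1 was called with the spread weighted by stage and 1 with the GC trend removed. From 1-cell to 2-cell (40) 9 were called in a fit on the 4 libraries and 17 with the weighted spread. From 2-cell to 4-cell (4) 12 were called with the GC trend removed, 14 after quantile normalization, 0 in the fit on 4 libraries, 0 with a pseudocount of 0.1 and 0 with the weighted spread. From 4-cell to 8-cell (3) the numbers were 45 on 4 libraries and 68 with the weighted spread. From 8-cell to blastocyst (0) they were 3 with the GC trend removed, 2 after quantile normalization and 2 with the weighted spread. Isoform balance (7) gave 13 with a pseudocount of 0.1 and 25 with the weighted spread. Leaving out each library in turn gave 0 to 4, 16 to 52, 0 to 29, 0 to 9 and 0 to 3 in stage order, 47 to 91 from oocyte to 4-cell, 33 to 65 from sperm to oocyte and 1 to 15 for isoform balance, where a lone sample was assumed to vary like the other groups. The shares of all genes called without single libraries are not given here, and the cause of these moves was not tested. The share of starts away from annotated starts was 45.0% at 50 bases and 19.5% with more than 1 exon, where whole coding regions made up 53.8% and annotated intron chains 51.5%.

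Replicate numbers as given by title did not pair the samples, since the correlation of deviations was above 0.1 in 8 of 21 pairs of stages (−0.54 to 0.47). Neither this nor the block was repeated with the 8-cell numbers reversed. With a replicate block 0, 36, 2, 1 and 0 members were called in stage order, 69 from oocyte to 4-cell, 50 from sperm to oocyte and 6 for isoform balance. Of all genes 0.01%, 28.9%, 0.87%, 0.89% and 2.26% were called in stage order. From oocyte to 4-cell 52.8% were called, and from sperm to oocyte 52.7%. Under the block the calls of Zfp180 and Zfp703 (2-cell to 4-cell, adjusted p = 0.0660 and 0.0715), Zfp239 and Zfp639 (4-cell to 8-cell, 0.0540 and 0.0653), Trim28 (1-cell to 2-cell, 0.0523) and Zfp932 (oocyte to 4-cell, 0.0516) were lost. Of the single genes named with a change, apart from the corepressors listed by name only, none reversed its direction under any alternative.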
